A study of Mus musculus with 22 samples.

Results

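The genes of the transforming growth factor beta (TGF-beta) pathway examined here were 9 in number, chosen by symbol and found among the 56691 genes of the count tables through their Ensembl identifiers. They comprise 2 ligands (Tgfb1 and Tgfb2), the milieu molecule Nrros, both chains of the receptor (Tgfbr1 and Tgfbr2), the signalling SMADs Smad2, Smad3 and Smad4, and the inhibitory SMAD Smad7. All 9 passed the filter on low counts on both days. They were followed in CD11b+ cells enriched on magnetic beads from the brains of 20 mice in 5 groups, from postnatal day 7 (P7) to P14.

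TGF-beta is secreted as an inactive complex with its own propeptide, and a milieu molecule holds that complex at the cell surface until integrins release the active ligand. In microglia, the resident macrophages of the brain, the milieu molecule is Nrros (also called LRRC33). The active ligand binds Tgfbr2, which recruits and phosphorylates Tgfbr1. Tgfbr1 then phosphorylates Smad2 and Smad3, which enter the nucleus together with Smad4, while Smad7, itself a target gene, blocks the receptor. This pathway is known to be needed for the mature microglial state, including expression of P2ry12, Tmem119 and Sall1.

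The mice were of the outbred CF-1 strain and carried no named transgene or deletion. In the HIE group (hypoxic-ischemic encephalopathy), the dam had received the bacterial product lipopolysaccharide in late gestation and the pups had a short global hypoxia on P6. Each group held 4 animals: HIE and control on P7, and HIE, control and hypoxia on P14. The hypoxia group is named so in the labels and was not described further in the sources used here, so whether its dams received lipopolysaccharide is not given. The HIE pups on P7 were all male, and the other groups had 2 males and 2 females. The labels of the P7 controls give days between P8 and P11, whereas the protocol gives P7, which was used. Animals share a name stem in pairs, so that each group held 2 such pairs, called litters here. Each litter belonged to 1 treatment, and the P7 and P14 libraries came in separate tables, so that litter and treatment, and age and table, cannot be told apart. On P7 the names of all HIE pups begin with N and those of all controls with P6H, so name prefix and treatment cannot be told apart there either.

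The stretches of DNA just upstream of 4 members are shown because 3 of them, Tgfb1, Tgfbr1 and Nrros, moved together over the P7 animals and Tgfb2 moved against them (values are given further on). Tgfbr2, Smad2, Smad3 and Smad7 separated the P7 control litters in the same direction as these 3 and are not shown. Each stretch is 140 bases long, taken from the RefSeq promoter table of GRCm38.p6 and matched without a mismatch to a single place on its chromosome in GRCm39. They lie at chr7:25386177-25386316 (plus strand) for Tgfb1, chr4:47352972-47353111 (plus strand) for Tgfbr1, chr16:31984523-31984662 (minus strand) for Nrros and chr1:186438297-186438436 (minus strand) for Tgfb2. All 4 end before the outermost start of the gene in the GENCODE annotation, by 74, 23, 2 and 3 bases respectively. They are written 5′ to 3′ on the strand of the gene, with capitals for the GC box.
Tgfb1: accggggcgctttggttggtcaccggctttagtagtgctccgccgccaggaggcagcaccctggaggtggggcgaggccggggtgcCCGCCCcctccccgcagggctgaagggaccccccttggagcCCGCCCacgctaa
Tgfbr1: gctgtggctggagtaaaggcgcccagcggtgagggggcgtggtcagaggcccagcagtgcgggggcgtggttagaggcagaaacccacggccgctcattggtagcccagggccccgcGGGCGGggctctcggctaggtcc
Nrros: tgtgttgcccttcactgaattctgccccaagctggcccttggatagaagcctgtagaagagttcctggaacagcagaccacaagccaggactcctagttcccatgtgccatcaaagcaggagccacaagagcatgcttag
Tgfb2: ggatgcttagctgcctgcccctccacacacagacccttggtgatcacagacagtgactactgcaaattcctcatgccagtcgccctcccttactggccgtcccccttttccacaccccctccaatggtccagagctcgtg

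The GC box (GGGCGG on either strand), the element bound by Sp1, occurred at 2 places upstream of Tgfb1 and at 1 place upstream of Tgfbr1, and it is found in 15.3% of the same stretch of 32851 promoters. Neither Nrros nor Tgfb2 held it there, whereas Smad3, whose stretch is not shown, did. None of the 4 stretches held the PU.1 element GAGGAAGT (1.16% of promoters), the SMAD palindrome GTCTAGAC (0.113%) or the AP-1 element TGANTCA (3.67%), each searched on both strands. GC content was 72.9% for Tgfb1, 71.4% for Tgfbr1, 52.9% for Nrros and 58.6% for Tgfb2, against a median of 50.7% over all promoters. These are matches of letters only.

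Library totals were 70191584 to 83469067 counts on P7 and 29751540 to 46404123 on P14, and 2 HIE animals on P14 had 2 libraries each, which were summed. Levels are given as CPM, the count of a gene relative to the scaled library total, on a common scale for all 20 animals. On this scale 3 counts, the smallest number told from 0, equalled at most 0.096 CPM (counting error only), and every member was above it in every animal. The CD11b+ identity held in most animals, with summed levels of 15 measured microglia markers (among them Csf1r and Cx3cr1; 16 listed) of 18941 to 21515 CPM in HIE pups on P7 and 19326 to 33547 CPM over the P14 animals. The P7 controls of litter P6H63 stood apart, with 1535 and 2374 CPM, while litter P6H55 had 14880.2 and 16921 CPM. The P6H63 pups were also highest among the P7 animals in the summed markers of astrocytes (4108 and 5087 CPM, against 1339 to 2020.3 CPM in the other 6), endothelial cells (2035 and 2572 against 771 to 1112 CPM) and mural cells and fibroblasts (2670.2 and 2760.4 against 801 to 1060 CPM). The P7 values of the members are therefore given with all controls and by control litter. Markers of T and B cells summed to at most 16 CPM in any animal.

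Per length of exon, the receptor chain Tgfbr1 had the highest mean of the members in each of the 5 groups. In the P6H63 controls on P7, however, Tgfbr1 (20.9 and 16.9 CPM per kb) lay below Tgfbr2 (28.2 and 23.9). On P14 the mean level of Tgfbr1 in controls was 273 ± 31.6 CPM per kb (SD, n = 4), followed by Tgfbr2 at 46.9 ± 2.54. Tgfb1 (27.1 ± 5.45), Smad7 (24.6 ± 3.52) and Nrros (24.5 ± 1.64 CPM per kb) came next and did not differ beyond their spread. Smad3 had 20.3 ± 2.33 CPM per kb, Smad4 10.6 ± 0.196 and Smad2 6.67 ± 0.239. Tgfb2 was the lowest at 3.23 ± 0.342 CPM per kb. In HIE pups on P7 the order began with Tgfbr1 (125 ± 12.9), Tgfb1 (73.6 ± 3.48), Tgfbr2 (58.6 ± 3.49) and Nrros (37.4 ± 1.53 CPM per kb), which were separated by more than their SDs. Smad7 (21.9 ± 4.5) and Smad3 (18.8 ± 1.4 CPM per kb) were not. Tgfb1 thus stood above Tgfbr2 on P7 and below it on P14 in HIE animals, where the P14 levels were 28.7 ± 4.05 and 52.9 ± 8.64 CPM per kb.

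**Figure D1:**
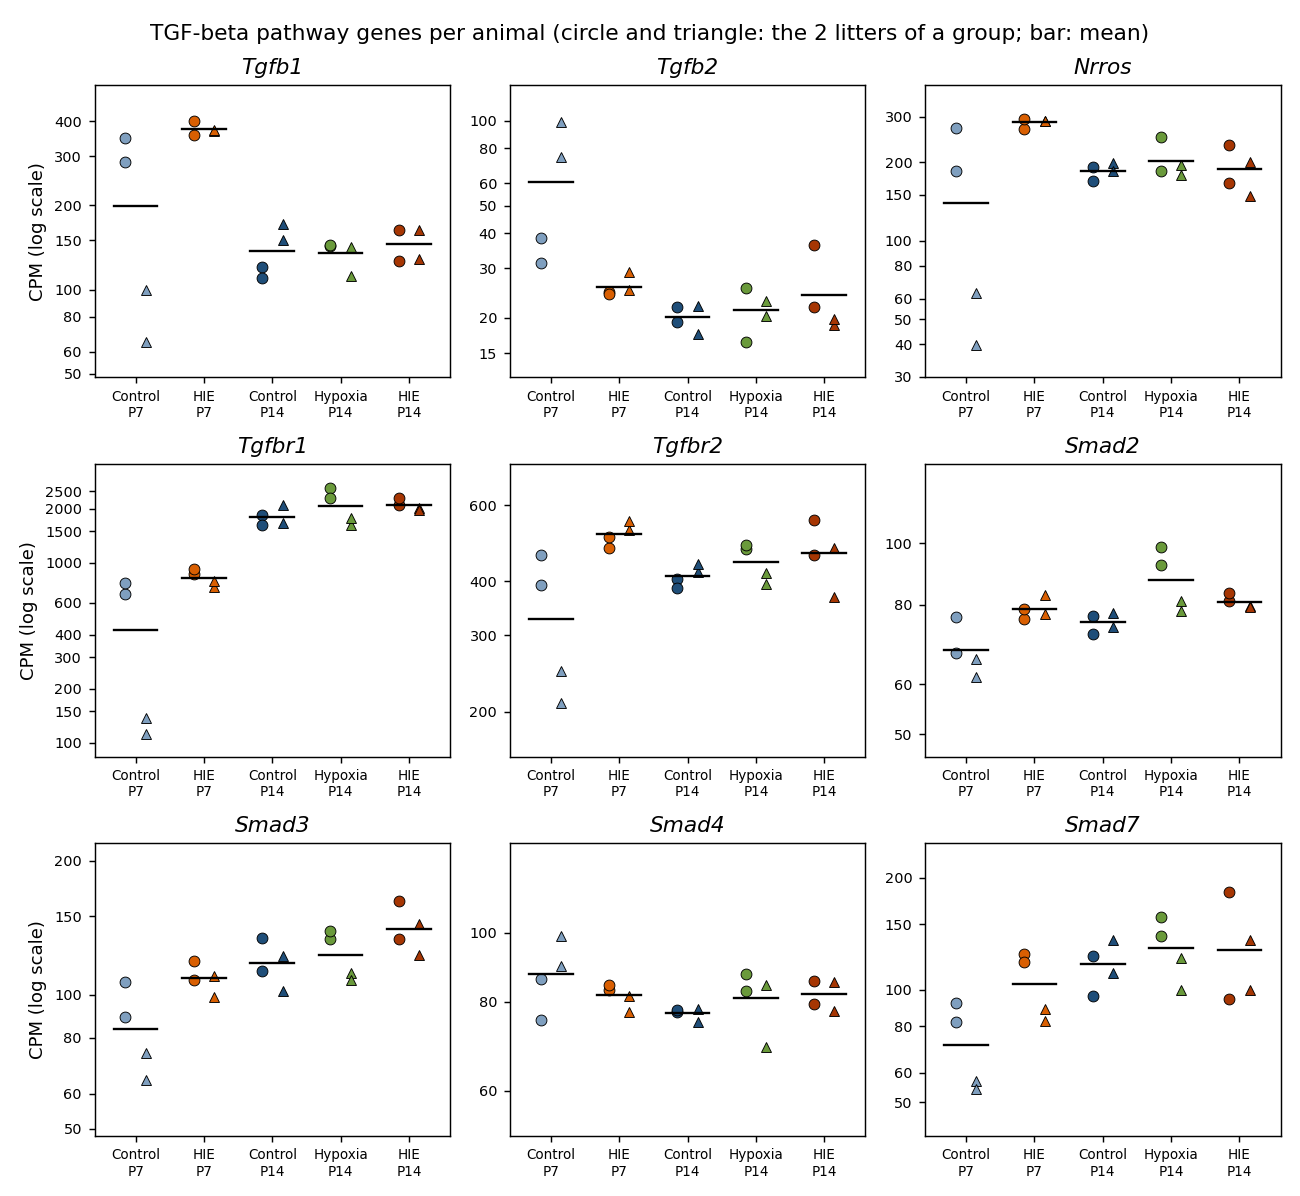
CPM on a log axis for the 9 members in each of the 20 animals, by group, with circles and triangles for the 2 litters of a group and a bar for the group mean (n = 4). The triangles of the P7 controls, litter P6H63, lie lowest for Tgfbr1 (112 and 138 CPM) and Nrros (39.8 and 63) and highest for Tgfb2 (74.7 and 99.3), and Tgfbr1 lies at or above 1629.8 CPM in every P14 animal.

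On P7, the day after hypoxia, the question was whether the pathway genes of HIE pups differed from those of controls. Against all 4 controls, none of the 9 members passed (edgeR's quasi-likelihood test, adjusted p under 0.05 over 22517 genes; 0.0666% of all genes were called). At an unadjusted p under 0.05 there were 4 members among 6143 genes. DESeq2, which called 13.4% of all genes, called 1 member, Tgfb2. The levels of 7 members were higher in HIE pups and those of Tgfb2 and Smad4 were lower, with a median log2 fold change of 0.53 over the members and of -0.08 over all genes. How far the groups differed depended on which control litter they were compared with. The fits by control litter set the 4 HIE pups against 2 controls of 1 litter. Their p-values therefore hold no spread between control litters, and against litter P6H63 58.5% of all genes were called.

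Tgfb1, the main ligand made by microglia, had 357, 369, 371 and 399 CPM in the HIE pups. The P6H55 controls had 285 and 349 CPM and the P6H63 controls 64.8 and 99.9. No control reached the lowest HIE value, and the P6H63 pups had the lowest values of Tgfb1 over all 20 animals. The log2 fold change was 0.89 (SE 0.493, adjusted p = 0.254, edgeR's quasi-likelihood test) with all controls, 0.23 (SE 0.0997, adjusted p = 0.307) against litter P6H55 and 2.21 (SE 0.176, adjusted p = 3.87e-05) against litter P6H63.

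Nrros, which anchors latent TGF-beta on microglia, had 268 to 294 CPM in the HIE pups. It had 186 and 271 CPM in the P6H55 controls, of which the higher fell within the HIE range, and 39.8 and 63 CPM in the P6H63 controls. Against all controls it was higher by 1.01 on the log2 scale (SE 0.544, adjusted p = 0.244). Against litter P6H55 alone it was 0.31 (SE 0.141, adjusted p = 0.323), and against litter P6H63 alone 2.5 (SE 0.185, adjusted p = 2.95e-05).

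Tgfb2, a ligand made by several other brain cell types, went the other way. The HIE pups had 24.3, 24.8, 25.2 and 29 CPM, the P6H55 controls 31.2 and 38.4 CPM, and the P6H63 controls 74.7 and 99.3 CPM. Every HIE pup was below every control. The log2 fold change was -1.24 (SE 0.345, adjusted p = 0.15 with edgeR and 0.0191 with DESeq2). It was -0.44 (SE 0.111, 95% interval -0.70 to -0.18, adjusted p = 0.201) against litter P6H55 and -1.72 (SE 0.12, adjusted p = 2.32e-05) against litter P6H63. The markers of choroid plexus and ependyma differed in the same direction. They were lower in HIE pups in 8 of 8 genes (DESeq2 called 6, edgeR 0), with a median log2 fold change of -1.45 with all controls and of -0.89 against litter P6H55, and they summed to 1224 to 2210.4 CPM in HIE pups, 3823 and 4332 CPM in litter P6H55 and 3652 and 9123 CPM in litter P6H63. None of the 10 astrocyte, 10 neuronal, 8 endothelial and 8 mural and fibroblast markers was higher in HIE pups either. Their median log2 fold changes were -0.99, -0.7, -0.95 and -1.14 with all controls. Against litter P6H55 they were -0.31, 0.02, -0.28 and -0.26. Of 10 oligodendrocyte lineage markers, 3 were higher in HIE pups. The part of these cell types in the result was not tested.

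Of the receptor chains, Tgfbr1 had 732, 789, 870.4 and 924 CPM in the HIE pups, 669 and 778 CPM in the P6H55 controls and 112 and 138 CPM in the P6H63 controls. The HIE and P6H55 values overlapped, whereas the P6H63 values were far below both. The log2 fold change was 0.95 (SE 0.614, adjusted p = 0.312) with all controls and 0.19 (SE 0.119, adjusted p = 0.459) against litter P6H55, and 2.76 (SE 0.144, adjusted p = 1.04e-05) against litter P6H63. For Tgfbr2, the HIE pups (479 to 552 CPM) were all above the controls (392 and 460.3 CPM in P6H55, 209.7 and 248 CPM in P6H63). Its log2 fold change was 0.64 (SE 0.252, adjusted p = 0.164) with all controls and 0.27 (SE 0.0969, adjusted p = 0.262) against litter P6H55, and 1.2 (SE 0.1, adjusted p = 4.79e-05) against litter P6H63.

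The SMADs had smaller fold changes. Smad3 (log2 fold change 0.37, SE 0.162, adjusted p = 0.182) and the inhibitory Smad7 (0.53, SE 0.22, adjusted p = 0.171) had the larger differences, Smad2 had 0.20 (SE 0.0899, adjusted p = 0.185), and Smad4, the partner shared with the bone morphogenetic protein branch, had -0.11 (SE 0.0947, adjusted p = 0.436). Against litter P6H55 the 4 values lay between 0.01 and 0.25. Against litter P6H63 alone they were 0.34 for Smad2 (SE 0.0603, adjusted p = 0.0021), 0.69 for Smad3 (SE 0.0919, adjusted p = 0.000479), -0.18 for Smad4 (SE 0.0625, adjusted p = 0.0419) and 0.93 for Smad7 (SE 0.18, adjusted p = 0.00307, edgeR). With all controls, scaling by library size alone, which moved the members' log2 fold changes by a median of -0.17, left 0.01 for Smad2. The values of all 4 SMADs overlapped between HIE and control. Smad7 also differed between the HIE litters, with 119 and 125 CPM in litter N5 and 82.3 and 89.1 CPM in litter N8.

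Over the members, 3 of 9 (Tgfb1, Tgfbr2 and Tgfb2) did not overlap between HIE and control pups, beside 17.1% of all genes. For these 3 the two-sided exact permutation test gave p = 0.0286, the smallest that 4 animals against 4 allow, and 0.129 after adjustment over 18 tests (9 members on each of both days). This test relabels single animals, although each group held 2 litters of 2, so it does not measure the spread between litters. With only the P6H55 controls, 0 of 9 members passed (edgeR's quasi-likelihood test; 0.112% of all genes were called, and 2 members, Tgfb2 and Tgfbr2, had an unadjusted p under 0.05). With only the P6H63 controls all 9 passed, beside 58.5% of all genes, and without the male P6H55 control 4 passed (Tgfb2, Tgfbr2, Smad2 and Smad3), beside 24.2% of all genes. In bulk samples, fewer cells of a type and less RNA of a gene per cell cannot be told apart, and the members' differences moved with the microglia markers, of which 15 of 15 were higher in HIE pups (median log2 fold change 1.11, 0 called) and which had a median of 0.28 against litter P6H55 and of 3.38 against litter P6H63. With the mean log2 level of these markers as a covariate, the log2 fold changes were 0.02 for Tgfb1, -0.06 for Tgfbr1, 0.09 for Nrros and -0.31 for Tgfb2, and 0 members passed (adjusted p from 0.253 to 0.948).

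**Figure D2:**
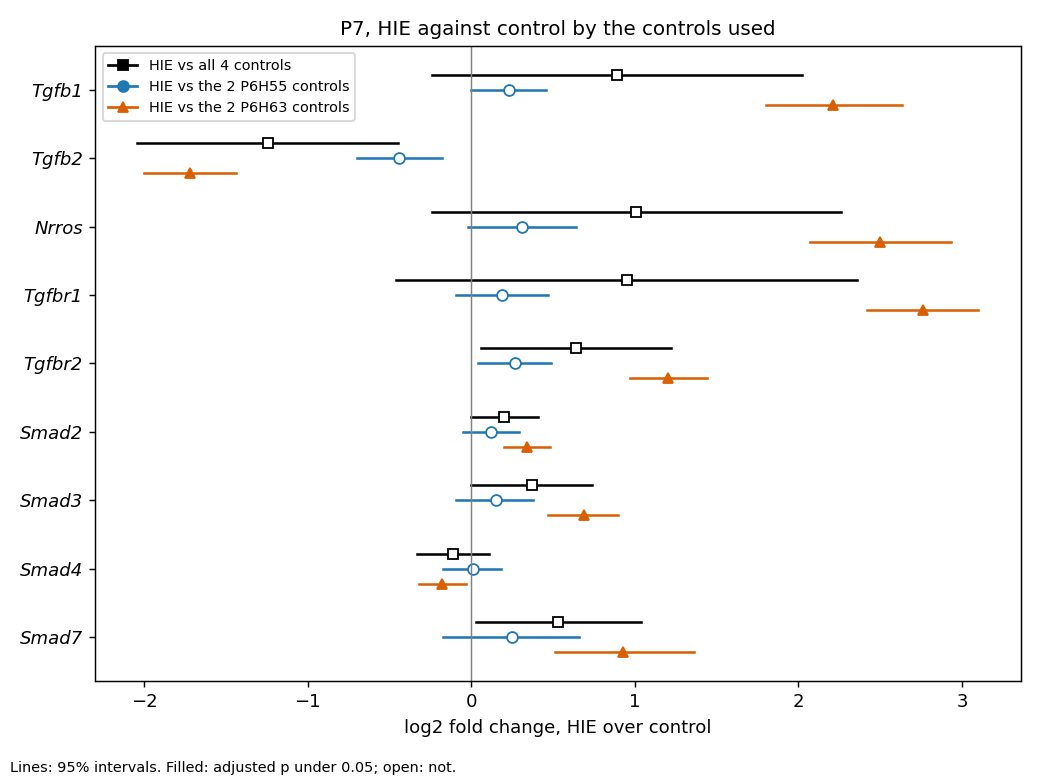
Log2 fold change of HIE over control on P7 for each member with its 95% interval, against all 4 controls (squares), the 2 P6H55 controls (circles) and the 2 P6H63 controls (triangles), filled where the adjusted p was under 0.05. Against litter P6H55 the values lie between -0.44 and 0.31 and none passed, and against litter P6H63 they reach 2.76 for Tgfbr1.

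On P14, the question was whether the pathway genes differed between HIE and control animals. None of the 9 members passed (edgeR's quasi-likelihood test over 21678 genes; 0% of all genes were called, 2016 genes and 0 members had an unadjusted p under 0.05, and DESeq2 called 239 genes and 0 members). The log2 fold changes lay between -0.01 for Nrros and 0.24 for Tgfb2, with a median of 0.12 beside 0.01 over all genes.

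Tgfbr1 had 1965, 2012, 2105 and 2283 CPM in HIE animals and 1631, 1666, 1846 and 2088 CPM in controls. The ranges overlapped through the highest control, and the log2 fold change was 0.19 (SE 0.147, 95% interval -0.13 to 0.51, adjusted p = 0.749). Smad3 had the smallest unadjusted p, with 140.4 ± 16.9 CPM in HIE animals and 118 ± 13.5 CPM in controls (SD, n = 4; log2 fold change 0.23, SE 0.109, adjusted p = 0.547, edgeR).

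Smad2 was the member whose values did not overlap, with 79.3 to 83.5 CPM in HIE animals and 72 to 77.7 CPM in controls, beside 5.42% of all genes. Its log2 fold change was 0.09 (SE 0.0757, adjusted p = 0.779, edgeR). The exact permutation test, again over single animals and not litters, gave p = 0.0286 (0.129 after adjustment over 18 tests). Within the animals whose names begin with P4H and P6H, which have 2 per group and no test, it was 0.11 and 0.06. For Tgfbr2 the value was 0.15 with all animals (SE 0.112, adjusted p = 0.735), 0.32 within P4H and -0.04 within P6H. Tgfb1 likewise differed in sign between the prefixes (0.29 and -0.15).

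Tgfb2 in HIE animals rested on 1 animal. It had 36.4 CPM in the male of litter P4H1 and 18.9 to 21.8 CPM in the other 3, while the controls had 17.6 to 22 CPM. The log2 fold change was 0.24 (SE 0.206, adjusted p = 0.773) and -0.03 without that animal. Summed microglia markers in that animal (30995 CPM) lay within the range of its group, 21909 to 33547 CPM. Its summed markers of choroid plexus and ependyma (4948 CPM) were the highest of the 12 P14 animals, and their part in the result was not tested.

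Between hypoxia and control animals, 0 of 9 members passed (edgeR's quasi-likelihood test; 0% of all genes called, 2143 genes at an unadjusted p under 0.05 and 1 member, Smad2; DESeq2 called 128 genes and 0 members). Smad2 had 78.2, 81.1, 92.5 and 98.8 CPM in hypoxia animals, all above the highest control at 77.7 CPM (5.14% of all genes did not overlap). The log2 fold change was 0.20 (SE 0.0758, 95% interval 0.03 to 0.36, adjusted p = 0.445, edgeR). Both high values came from litter P6H7. The hypoxia animals all bear the prefix P6H, and against the P6H controls alone the value for Smad2 was 0.18 (adjusted p = 0.813, a comparison added after the data were seen). The other 8 log2 fold changes lay between -0.06 and 0.17.

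Between HIE and hypoxia animals no member passed either (edgeR's quasi-likelihood test, 0 of 9 members, 0% of all genes; 1252 genes and 0 members at an unadjusted p under 0.05; DESeq2 called 22 genes and 0 members). The log2 fold changes lay between -0.11 (Smad2 and Nrros) and 0.20 (Smad3). The 95% interval for Tgfbr1 was -0.30 to 0.33. The comparisons of HIE and of hypoxia with control share the control animals.

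Each group of 4 held 2 litters of 2 animals. In hypoxia animals both pups of litter P6H7 were above both of litter P6H9 for 6 of 9 members (Tgfb1, Tgfbr1, Tgfbr2, Smad2, Smad3 and Smad7), beside 47.3% of all genes that separated the litters in either direction. Tgfbr1, for example, had 2293 and 2619 CPM in litter P6H7 and 1629.8 and 1779.9 CPM in litter P6H9. The summed microglia markers were 28628 and 31650.4 CPM in litter P6H7 and 19326 and 23293 CPM in litter P6H9. The litters separated 3 members in HIE animals on P14 (53.3% of all genes), 2 in controls on P14 (43.7%), 5 in HIE pups on P7 (39.6%) and 9 in controls on P7 (71.4%). With 2 animals in a litter, no test between litters was made.

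Between P7 and P14, which also separates the 2 tables, the ligand Tgfb1 and the receptor chain Tgfbr1 moved in opposite directions. The other ligand, Tgfb2, and the other chain, Tgfbr2, had log2 fold changes of -0.09 and -0.15 in HIE animals and did not pass there. In HIE animals Tgfb1 fell and Tgfbr1 rose, and 2 of 9 members passed (edgeR's quasi-likelihood test over 24504 genes with all 5 groups in the fit; 35.7% of all genes were called). In controls 4 of 9 passed, of which Tgfbr1, Smad7 and Smad3 rose and Tgfb2 fell (48.1% of all genes called). These shares of members were not above those of all genes.

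Tgfbr1 in HIE animals went from 732 to 924 CPM on P7 to 1965 to 2283 CPM on P14, a 2.52-fold rise (log2 fold change 1.33, SE 0.431, adjusted p = 0.0218, edgeR). The call was lost without either pup of litter N8. No P7 animal of any group reached the lowest P14 value of 1629.8 CPM. In controls the log2 fold change was 2.09 (SE 0.441, adjusted p = 0.000995) with all P7 controls and 1.33 (SE 0.175, adjusted p = 2.41e-05) without litter P6H63. The microglia markers had a median log2 fold change of 0.45 in HIE animals (1 of 15 rose, 0 fell) and, without litter P6H63, of 0.56 in controls (7 rose and 1 fell). In the fit without litter P6H63 they had a median of 0.43 in HIE animals (9 rose and 2 fell).

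Tgfb1 in HIE animals went from 374 ± 17.7 to 146 ± 20.6 CPM (SD, n = 4), a 2.56-fold fall (log2 fold change -1.36, SE 0.352, adjusted p = 0.00568, edgeR). The ranges, 357 to 399 and 127 to 164 CPM, were far apart. In controls the change was -0.53 (SE 0.347, adjusted p = 0.212) with all P7 controls. Without litter P6H63, whose Tgfb1 level lay below that of all P14 animals, it was -1.20 (SE 0.149, adjusted p = 1.36e-05).

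Tgfb2 in controls fell from 60.9 ± 31.9 to 20.2 ± 2.14 CPM (log2 fold change -1.59, SE 0.288, adjusted p = 0.000273, edgeR) and by 0.78 on the log2 scale without litter P6H63 (SE 0.215, adjusted p = 0.00954). In HIE animals, where Tgfb2 was already at 25.8 ± 2.16 CPM on P7, the change was -0.09 (SE 0.281, adjusted p = 0.83). Nrros had a log2 fold change of -0.60 in HIE animals (SE 0.377, adjusted p = 0.229) with P7 values of 268 to 294 CPM above all P14 values of 148 to 234 CPM. It passed in the fit without litter P6H63 (-0.63, SE 0.133, adjusted p = 0.00106). In controls Nrros changed sign with the litter, from 0.41 (SE 0.377, adjusted p = 0.377) with all controls to -0.29 (SE 0.161, adjusted p = 0.169) without it.

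Smad3 rose in controls (log2 fold change 0.50, SE 0.142, adjusted p = 0.00833) and had 0.36 in HIE animals (SE 0.142, adjusted p = 0.0523). Without litter P6H63 the order was turned, with 0.34 in HIE animals (SE 0.106, adjusted p = 0.0144) past the threshold and 0.27 in controls (SE 0.131, adjusted p = 0.116) not. Smad7 rose in controls with all animals (0.71, SE 0.221, adjusted p = 0.0138) and had 0.42 (SE 0.233, adjusted p = 0.167) without litter P6H63. Smad2, Smad4 and Tgfbr2 did not pass in either group, and their log2 fold changes lay between -0.18 and 0.33. Scaling by library size alone moved the values in controls by a median of -0.13, turned Smad2 to -0.01 and gave Smad4 a call at -0.36 (adjusted p = 0.0156, edgeR).

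Without the P6H63 controls, 3 members passed in controls, Tgfbr1 higher and Tgfb1 and Tgfb2 lower (35.5% of all genes called). In HIE animals fitted on their own, 4 passed, Tgfbr1 and Smad3 higher and Tgfb1 and Nrros lower (46% of all genes called). The 2 groups of HIE animals did not overlap for these 4 members, beside 42.3% of all genes. In controls the values of Tgfbr1, Smad7 and Tgfb2 did not overlap, beside 36.2% of all genes. The age comparisons of HIE and control animals share no animals, but both set the same 2 tables against each other in 1 fit. Without litter P6H63, the log2 fold changes in HIE and control animals were 1.31 and 1.33 for Tgfbr1 and -1.38 and -1.20 for Tgfb1. They were further apart for Tgfb2 (-0.11 and -0.78) and Nrros (-0.63 and -0.29).

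**Figure D3:**
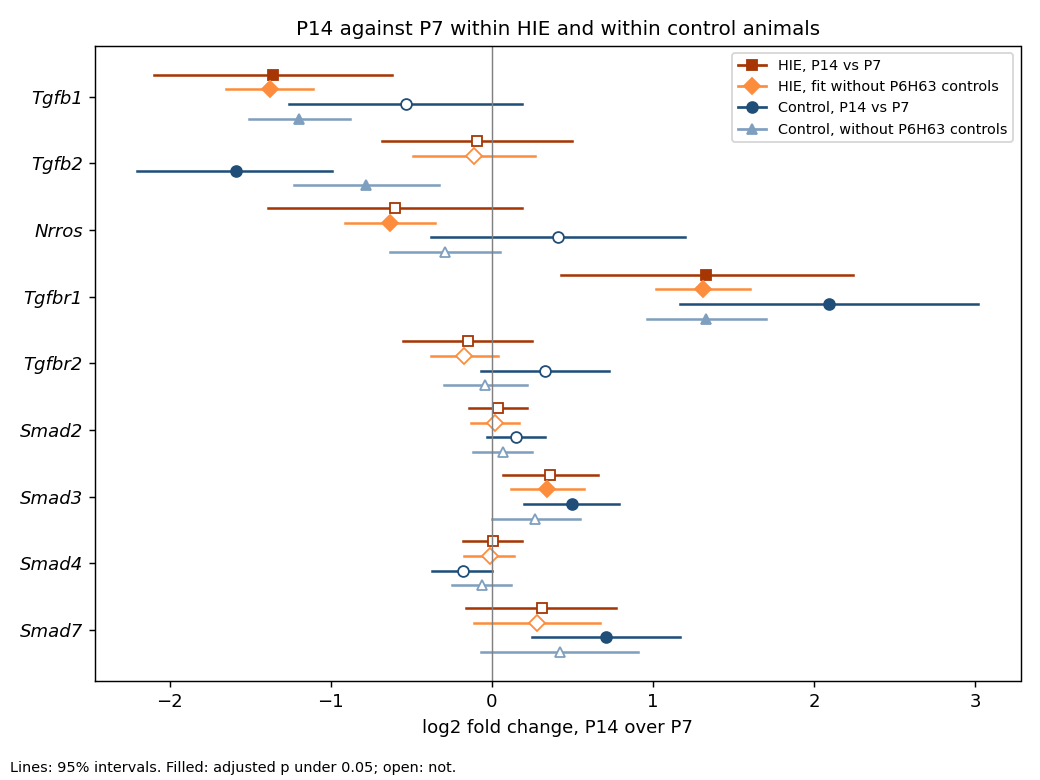
Log2 fold change of P14 over P7 for each member with its 95% interval, in HIE and in control animals, with all animals in the fit and without the P6H63 controls, filled where the adjusted p was under 0.05. Tgfbr1 lies between 1.31 and 2.09 in the 4 fits shown and Tgfb1 between -1.38 and -0.53, while Smad2 and Smad4 lie near 0.

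The difference in HIE effect between P14 and P7 was tested as an interaction. None of the 9 members passed (edgeR's quasi-likelihood test; 0% of all genes called, 3531 genes and 1 member at an unadjusted p under 0.05). Tgfb2 came nearest, with a log2 difference of 1.5 (SE 0.4, adjusted p = 0.0959, edgeR), and DESeq2 called it (adjusted p = 0.0224; 2.86% of all genes called). Without litter P6H63 the difference was 0.67 (SE 0.282, adjusted p = 0.558). Nrros had -1.02 (SE 0.533, adjusted p = 0.392) and -0.34 (SE 0.211, adjusted p = 0.746) without that litter.

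**Figure D4:**
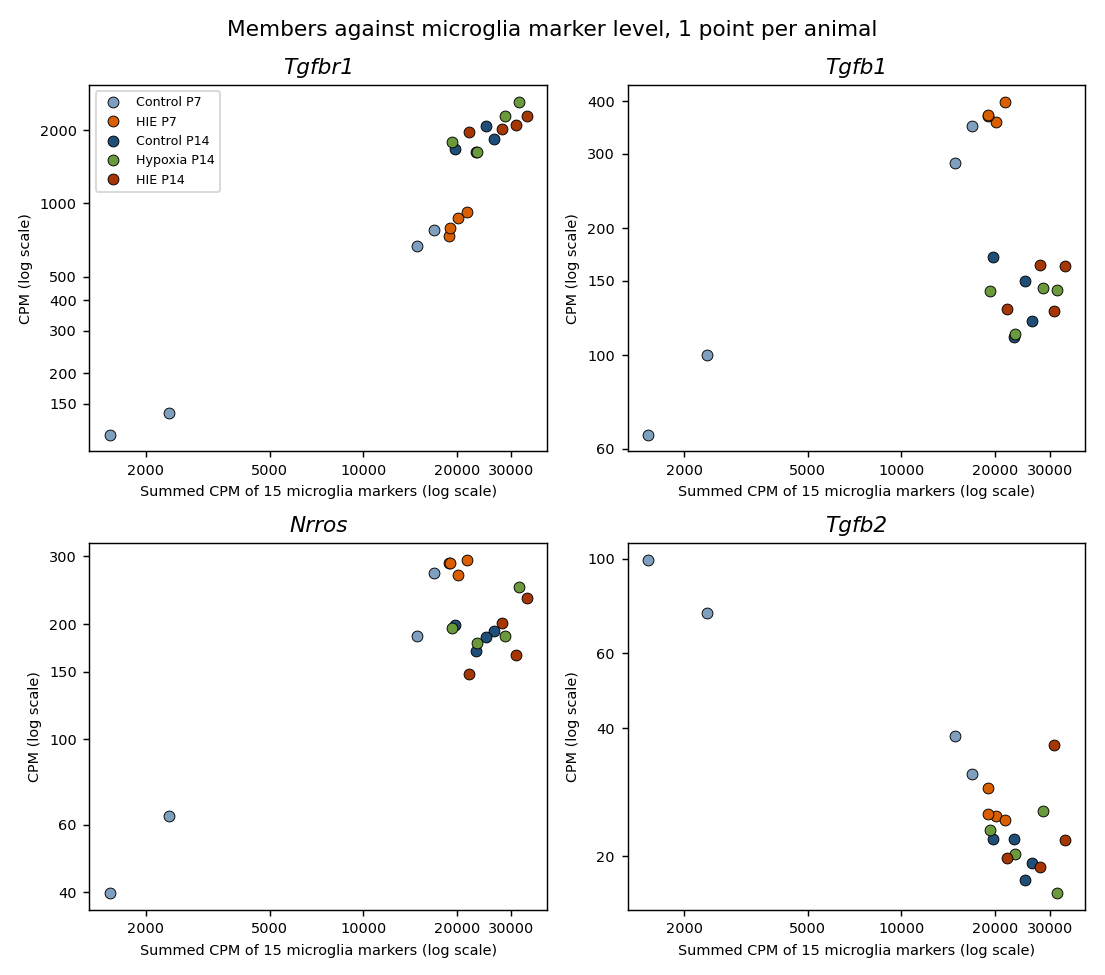
CPM of Tgfbr1, Tgfb1, Nrros and Tgfb2 against the summed CPM of 15 microglia markers in each of the 20 animals, both on log axes, coloured by group. The P6H63 controls, at 1535 and 2374 CPM of markers, are low for Tgfbr1, Tgfb1 and Nrros and high for Tgfb2, and where marker levels are alike the P14 animals lie above the P7 animals for Tgfbr1 and below them for Tgfb1.

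The other genes of the pathway were taken from 5 lists written by role. Their counts with age stand beside 35.7% of all genes called in HIE animals and 48.1% in controls, or 45.2% and 35.5% without litter P6H63 (edgeR's quasi-likelihood test). Among 16 genes for ligands and latency, 4 rose and 3 fell in HIE animals, and without litter P6H63 there were 6 and 4. The proprotein convertase Furin, which cleaves the TGF-beta precursor, fell (log2 fold change -0.83, SE 0.152, adjusted p = 0.000404), as did the membrane protease Mmp14 (-0.82, SE 0.275, adjusted p = 0.0268). The latent TGF-beta binding protein Ltbp1 (1.1, SE 0.34, adjusted p = 0.0169) and the integrin chain Itgb6 (1.42, SE 0.45, adjusted p = 0.02) rose, although Itgb6 had mean levels of 0.189 and 0.508 CPM on P7 and P14. In controls 3 rose and 8 fell, and without litter P6H63 there were 2 and 5. With all controls these included falls of Mmp14 (-2.26, SE 0.286, adjusted p = 8.7e-06) and of Lrrc32, another milieu molecule (-2.20, SE 0.331, adjusted p = 5.1e-05), and a rise of the integrin chain Itgb5 (1.67, SE 0.357, adjusted p = 0.00109).

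Of 10 other receptors, 1 rose in HIE animals (2 without litter P6H63), the activin receptor Acvr2a (log2 fold change 0.36, SE 0.0964), and 5 fell in controls (1 without litter P6H63), among them the coreceptor Tgfbr3 (-1.34, SE 0.255, adjusted p = 0.000414). Of 13 tested genes for other SMADs and partners, 0 rose and 3 fell in HIE animals, and 0 rose and 4 fell in controls. Without litter P6H63, 1 rose and 6 fell in HIE animals and 1 rose and 4 fell in controls. Creb3l1 fell in HIE animals (-1.4, SE 0.328, adjusted p = 0.00277) and in controls (-2.47, SE 0.341, adjusted p = 2.18e-05), and Smad9, of the bone morphogenetic protein branch, fell in controls (-1.46, SE 0.31, adjusted p = 0.00107). The kinase adaptor Tab2 fell in HIE animals by 0.72 on the log2 scale (SE 0.2), and in the fit without litter P6H63 it fell in both groups (-0.74 and -0.71). Of 14 inhibitors and turnover genes, 2 rose and 4 fell in HIE animals and 5 rose and 2 fell in controls. Without litter P6H63 there were again 2 and 4 in HIE animals, and 4 and 4 in controls. The immunophilin Fkbp1a, which holds Tgfbr1 inactive, fell in both, from 142 ± 13.9 to 47.2 ± 4.45 CPM in HIE animals (-1.59, SE 0.146, adjusted p = 2.06e-07, edgeR) and by 1.76 on the log2 scale in controls (SE 0.147, adjusted p = 6.42e-08). The inhibitors Ldlrad4 (0.96, SE 0.256, adjusted p = 0.00691) and Pmepa1 (0.63, SE 0.239, adjusted p = 0.0465) rose in HIE animals, and both rose in controls with and without litter P6H63. The corepressor Tgif1 fell in HIE animals (-1.08, SE 0.217, adjusted p = 0.000853).

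Genes that TGF-beta is known to induce moved in both directions. In HIE animals 3 of 15 rose and 3 fell (3 and 5 without litter P6H63), and in controls 1 rose and 9 fell (1 and 7 without that litter). In controls the matrix genes Col1a1 (log2 fold change -2.24, SE 0.37, adjusted p = 0.000121) and Fn1 (-1.72, SE 0.314, adjusted p = 0.000296) fell, beside a fall of the mural and fibroblast markers in 7 of 8 (2 of 8 without litter P6H63). Ccn2 rose in HIE animals (1.70, SE 0.311, adjusted p = 0.000374). The cell cycle inhibitor Cdkn1a (-2.37, SE 0.196, adjusted p = 5.77e-08) and the immediate early gene Klf10 (-1.71, SE 0.142, adjusted p = 5.91e-08) fell. Klf10, a TGF-beta-inducible early gene, was also the 1 gene of these 5 lists called on P7 with edgeR, beside 0.0666% of all genes. It had 101 ± 7.18 CPM in HIE pups and 62.8 ± 1.73 CPM in controls (log2 fold change 0.67, SE 0.0826, adjusted p = 0.0484, edgeR). Its control values of 60.9 to 65 CPM lay close together in both litters. It also passed against litter P6H55 alone (0.112% of all genes called) and with the marker covariate (0.0888%). The lists were chosen with earlier results of these data known, so this call was not an independent test of the pathway.

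Apart from Klf10, 0 genes of the 5 lists passed on P7 and 0 passed in any comparison on P14 with edgeR's quasi-likelihood test. On P14 DESeq2 called 2 ligand and latency genes higher in HIE than in control animals, Ltbp4 (log2 fold change 0.52, adjusted p = 0.0477) and Lrrc32 (0.85, adjusted p = 0.0032), beside 1.1% of all genes. In hypoxia animals it called Lrrc32 (0.74, adjusted p = 0.0224) and the induced target Ccn2 (0.95, adjusted p = 0.0254) higher than in controls, beside 0.59% of all genes. These genes are named because DESeq2 called them. Markers of other cells differed in the same comparisons. Mural and fibroblast markers were higher in HIE than in control animals in 8 of 8 genes (median log2 fold change 0.53, 2 called by DESeq2), as were endothelial markers in 8 of 8 (0.47, 0 called), while neuronal markers were lower in 10 of 10 (-1, 5 called). In hypoxia animals the medians were 0.46, 0.35 and -0.73. Their part in these calls was not tested.

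On P7 DESeq2, with 13.4% of all genes called, called 1 higher and 8 lower among ligands and latency, 2 lower among receptors, 1 higher and 2 lower among other SMADs, 3 higher among inhibitors, and 2 higher and 4 lower among induced targets. It also called lower 7 of 8 endothelial markers, 6 of 8 mural and fibroblast markers and 6 of 8 markers of choroid plexus and ependyma. The median log2 fold change of the ligand and latency genes was -1.1 with all controls and -0.22 against litter P6H55, where the medians of the endothelial and mural markers went from -0.95 and -1.14 to -0.28 and -0.26. The part of these cells in the counts was not tested. The most abundant genes of the lists without a call had log2 fold changes on P7 of 1.24 (Itgb5, SE 0.492), 0.22 (Itgb1, SE 0.133), 0.11 (Bmpr2, SE 0.101), -0.38 (Eng, SE 0.253), 0.54 (Tab2, SE 0.283), 0.11 (Crebbp, SE 0.101), 0.83 (Skil, SE 0.307) and 0.34 (Ski, SE 0.197).

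Microglial genes known to need TGF-beta mostly rose with age where they passed. In HIE animals 4 of 14 measured genes rose and 0 fell (median log2 fold change 0.56, beside 0.04 over all genes, of which 35.7% were called), and without litter P6H63 10 rose and 1 fell (45.2% called). In controls 9 rose and 0 fell (48.1% called), and without litter P6H63 6 rose and 1 fell (35.5% called). Tmem119 rose from 499 ± 92.5 to 1653 ± 333 CPM in HIE animals (1.73, SE 0.496, adjusted p = 0.0111) and had a log2 fold change of 2.63 in controls (SE 0.513, adjusted p = 0.000515). In the fit without litter P6H63, P2ry12 rose in both groups (0.92, SE 0.183, and 0.97, SE 0.233), whereas Sall1, a transcription factor of microglial identity, fell in both (-0.46, SE 0.129, and -0.44, SE 0.156). The matrix glycoprotein gene Sparc rose by the same size in HIE and control animals (1.32, SE 0.197, in both). Slc2a5, a fructose transporter, rose in HIE animals (2.84, SE 0.904, adjusted p = 0.0201) with a wide spread on P14 (103 ± 103 CPM). Several of these genes, such as P2ry12 and Tmem119, are also in the microglia marker list.

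Genes known to be higher in microglia without TGF-beta signalling went both ways with age. In HIE animals 3 of 15 rose and 6 fell, and the same counts held for controls, with all animals and without litter P6H63. Of all genes, 35.7% were called in HIE animals and 48.1% in controls, or 45.2% and 35.5% without that litter. Spp1, which encodes osteopontin, fell from 675 ± 307 to 54.9 ± 6.95 CPM in HIE animals (log2 fold change -3.62, SE 0.39, adjusted p = 1.49e-06, edgeR), and Gpnmb fell from 244 ± 109 to 31.9 ± 11.3 CPM (-2.93, SE 0.456, adjusted p = 8.23e-05). The fatty acid binding protein Fabp5 fell in controls (-2.16, SE 0.27, adjusted p = 7.76e-06). The genes that rose encode antigen presentation by MHC class II, H2-Aa (2.63, SE 0.488, adjusted p = 0.000417), H2-Ab1 (2.12, SE 0.423, adjusted p = 0.000791) and Cd74. Of this list, DESeq2 called 5 of 15 genes higher in HIE pups on P7, with all controls. Of the genes that need TGF-beta it called 1 of 14 higher, beside 13.4% of all genes called. In both lists DESeq2 called 0 lower, and edgeR called 0 in either direction. The log2 fold change was above 0 in 11 of 15 genes of this list and in 13 of 14 genes that need TGF-beta. The median log2 fold changes were 0.68 and 1.07, beside 1.11 for the microglia markers. Against litter P6H55 they were 0.19 and 0.27, beside 0.28. With the mean log2 level of the microglia markers as a covariate in edgeR, the medians were 0.16 and 0.01. That fit called 0 genes higher in either list and 1 lower, among the genes that need TGF-beta (0.0888% of all genes called). The part of microglia content in the DESeq2 calls was not tested. On P14 neither list had a gene that passed between HIE, hypoxia and control animals with edgeR (DESeq2 called Itgax, of the second list, higher in HIE than in hypoxia animals, beside 0.101% of all genes), and their median log2 fold changes for HIE over control were 0.25 for genes that need TGF-beta and 0.13 for genes higher without it, beside 0.20 for the microglia markers.

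Over the 12 P14 animals the members were compared by the Pearson correlation of their log2 CPM, as a description, since the animals share litters, 1 scale and their content of microglia. The highest value was 0.88, between Smad7 and Nrros, followed by 0.78 between Tgfbr1 and Smad2 and 0.77 between Tgfbr2 and Smad3. Tgfb2 was the member least like the others, with values down to -0.39 with Nrros. Among 21678 genes, those most like Tgfbr1 over these 12 animals were Pdcd6ip (r = 0.96), Kbtbd2 (0.94) and Papola (0.94). Those most like Tgfb1 were Zbtb7a (0.93), Zfp385a (0.93) and Mideas (0.92), and those most like Nrros were Ric8a (0.95), Zfp512 (0.93) and Tnpo2 (0.92). For Tgfbr2 the first was Etv5 (0.96), for Smad2 Ctdspl2 (0.97), for Smad3 Slc44a2 (0.94), for Smad4 Ddx6 (0.92), for Smad7 Wasf2 (0.93) and for Tgfb2 Ak3 (0.92).

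The genes lie at the following places in GRCm39: Tgfb1 (ENSMUSG00000002603) at chr7:25386390-25404506, Tgfb2 (ENSMUSG00000039239) at chr1:186354985-186438294, Nrros (ENSMUSG00000052384) at chr16:31960320-31984521, Tgfbr1 (ENSMUSG00000007613) at chr4:47353134-47414931 and Tgfbr2 (ENSMUSG00000032440) at chr9:115913361-116004800. Smad3 (ENSMUSG00000032402) lies at chr9:63554049-63665476. Smad2 (ENSMUSG00000024563), Smad4 (ENSMUSG00000024515) and Smad7 (ENSMUSG00000025880) all lie on chromosome 18, at chr18:76374327-76445180, chr18:73769343-73836915 and chr18:75500374-75529006. Counts were taken over the exons of each gene. Annotated lncRNAs on the opposite strand overlap the bodies of Tgfb2 (Gm29491 and Gm35546), Tgfbr2 (Gm4668) and Smad4 (Gm32548), and the strand setting of the counting is not given in the sources used here, so reads of these partners in shared stretches cannot be told apart.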

How the data were processed

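Bulk RNA sequencing of CD11b+ cells from 20 mice (22 libraries) was analysed. The authors enriched the cells on magnetic beads, made stranded total RNA libraries after ribosomal RNA removal, aligned them with STAR to the GRCm39 genome, ran RSEM for quantification, and deposited these expected counts per gene without scaling. RSEM divides reads that match several genes. In each library 84.2 to 88.0% of values were whole, and all were rounded here. The sources name FastQC, STAR and RSEM in the submitters' processing notes.

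Groups came from the labels. Libraries of the same animal were summed. Symbols came from GENCODE M39 (56017 of 56691 identifiers matched). Differential expression was tested with edgeR 4.0.16 (R 4.3.3; quasi-likelihood F test) with TMM normalization, the filterByExpr filter and Benjamini-Hochberg adjustment over all tested genes, and standard errors were derived from the F statistic. P7 groups (8 animals) and P14 groups (12 animals) were fitted apart, and age and interaction over all 20. Intervals cover 95%. CPM used TMM factors over all 20 animals, log2 CPM a prior count of 2, and levels per kb the summed exon length. The labels do not say that animals of a litter are independent, so p-values measure the spread between these animals.

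The alternatives were DESeq2 1.42.0, edgeR's exact test, other normalizations, no filter, sex and prefix terms, 1 library per animal, fits over fewer groups, each control litter alone, a marker covariate and leaving out each animal in turn. The procedure was tested on simulated counts. The members and lists were chosen with earlier results of these data known. Named were all members, and in each pathway list, of the genes that passed, the 2 at either end of the fold change (with none, the 2 of highest mean level), most of which are printed. Sall1 was named after its values were seen. Promoters matched for 6 of 9 members. The marker Fcrls was not matched under that symbol. Some genes of the lists are not reported here by name.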

Additional observations from a re-analysis of the deposited data

Results flagged for a closer look

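In 45 sets of 4 animals (9 members in 5 groups), 2 held an animal whose distance from the other 3 exceeded Dixon's critical share of the group's range at the 95% level, and chance alone gives about 1 in 20. Tgfb1 in hypoxia animals on P14 was 112 CPM in a male of litter P6H9 and 142 to 144 CPM in the other 3 (gap 0.938 of the range). Tgfb2 in HIE animals on P14 was 36.4 CPM in a male of litter P4H1 and 18.9 to 21.8 CPM in the other 3 (gap 0.834 of the range).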

How the results depend on the processing

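The 0 members called between HIE, hypoxia and control animals on P14 stayed 0 under every alternative run. On P7 the 0 became 1 (Tgfb2) with DESeq2 (13.4% of all genes called) and with edgeR's exact test (5.78%), 9 with the P6H63 controls only (58.5%), and 0 to 4 when 1 animal was left out, the 4 (Tgfb2, Tgfbr2, Smad2 and Smad3) without the male P6H55 control (24.2%, against 0.0432% to 0.0611% without any other animal). Between days, the 4 members called in controls (48.1% of all genes) became 4 to 7 when 1 animal was left out (38.7% to 52.7%), 7 again without the male P6H55 control (52.7%). The 2 called in HIE animals (35.7%) became 4 with the exact test (46.1%), with only the groups compared in the fit (46%) and without the P6H63 controls (45.2%), and 1 to 3 when 1 animal was left out (28.2% to 34.4%), where Tgfbr1 lost its call without either pup of litter N8. The interaction, with 0, had 1 with DESeq2 (Tgfb2, 2.86%) and 0 to 2 when 1 animal was left out, with Tgfb2 and Nrros without the male P6H55 control (6.99%) and Tgfb2 without the female (3.04%).

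Signs turned only for values that had not passed. On P7, Smad4 was 0.01 with the P6H55 controls only and 0.02 with the marker covariate, where Tgfbr1 was -0.06. For HIE over control on P14, Nrros was 0 without the filter, and leaving out 1 animal gave -0.03 to 0.17 for Tgfb1, -0.03 to 0.35 for Tgfb2, -0.09 to 0.23 for Smad7 and -0.13 to 0.08 for Nrros. For hypoxia over control, leaving out 1 animal gave -0.12 to 0.08 for Tgfb1, -0.04 to 0.17 for Tgfb2, -0.03 to 0.11 for Smad3 and -0.01 to 0.16 for Nrros. In controls with age, Smad2 was -0.01 with library size only, and Tgfbr2 was -0.04 and Nrros -0.29 without the P6H63 controls. In HIE animals with age, Smad4 was 0 with library size only and without the filter, -0.01 without the P6H63 controls and -0.02 to 0.04 when 1 animal was left out, where Tgfb2 was -0.36 to 0.01. The cause was not tested. No paired analysis was possible because replicate numbers only name the animals, which differ in litter between groups. Groups of 4 animals limit the precision of all values.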
